A study of Mus musculus with 24 samples.

Results

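Siglecf and 4 further genes of the eosinophil, Ccr3, Il5ra, Prg2 and Epx, were followed in the whole blood of 24 mice, all male 129S/J, 1 mouse per 1-colour Agilent array. The genes were chosen by symbol, all 5 were found among the 24325 gene symbols of the array, and each was represented by its brightest probe. Siglecf was chosen by its difference between unirradiated knockout and wild-type blood, so that difference is given here as a description with no test. Wild-type mice received 0 Gy (sham, n = 5), 6 Gy (n = 5) or 8.8 Gy (n = 4) of X rays, and Parp1-/- mice, called knockout here, received 0 Gy (n = 5) or 6 Gy (n = 5). Blood was drawn from the heart 24 h later into an RNA stabiliser, and globin RNA was depleted in all groups. Per the series' design text, 8.8 Gy for the wild type and 6 Gy for the knockout are the doses that kill 50% of mice within 30 days. The labels do not give the age of the mice or the part of Parp1, the gene of a nuclear enzyme that attaches ADP-ribose chains to proteins at DNA breaks, that the null allele lacks.

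Eosinophils are granulocytes that depend on interleukin-5 for their production in the marrow and on eotaxin chemokines for their movement into tissues, and they are a small fraction of blood leukocytes. Siglecf encodes a sialic acid-binding lectin with an inhibitory tail that mouse eosinophils carry on their surface, and which alveolar macrophages also carry. Ccr3 encodes the eotaxin receptor and Il5ra the interleukin-5 receptor alpha chain, while Prg2 encodes major basic protein, the core of the eosinophil granule, and Epx encodes eosinophil peroxidase, a granule enzyme.

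Siglecf was measured by 2 probes of 60 bases, whose sequences are shown because they differed in brightness and, in some arrays, in what they reported. The first lies inside the transcript, at position 1561 (mm9 chr7:50611746-50611805), and the second lies toward its 3′ end, at position 2437 (mm9 chr7:50614768-50614827), of which the first 30 bases are given. The other members are placed by the array files (mm9) at chr9:123945225-123945284 for Ccr3, chr6:106660378-106660437 for Il5ra, chr2:84822799-84822858 for Prg2 and chr11:87678288-87678347 for Epx.
Siglecf inner probe: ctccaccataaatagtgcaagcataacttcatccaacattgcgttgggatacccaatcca
Siglecf 3′ end probe, first 30 bases: ggccagcaaacatacaagaaggtaatctca

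The promoters of Siglecf, Ccr3 and Il5ra are shown since the receptor genes rose and fell together from array to array and Siglecf did so with them less closely. A link between promoter letters and these levels was not tested. Each is the run of 250 bases before the gene's start in RefSeq (GRCm38.p6), at chr7:43351091-43351340 on the plus strand for Siglecf, chr9:124021721-124021970 on the plus strand for Ccr3 and chr6:106749038-106749287 on the minus strand for Il5ra. Capitals mark GATA words, which on either strand were the word TGATAA and its variant with a closing guanine (TGATAG), the word AGATAA and its like variant (AGATAG). Prg2 is named only.
Siglecf promoter: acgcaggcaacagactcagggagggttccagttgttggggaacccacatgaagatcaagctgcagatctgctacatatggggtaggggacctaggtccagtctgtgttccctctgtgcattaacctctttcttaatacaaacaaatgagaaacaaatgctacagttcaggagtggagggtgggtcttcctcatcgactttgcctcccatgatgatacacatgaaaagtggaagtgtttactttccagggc
Ccr3 promoter: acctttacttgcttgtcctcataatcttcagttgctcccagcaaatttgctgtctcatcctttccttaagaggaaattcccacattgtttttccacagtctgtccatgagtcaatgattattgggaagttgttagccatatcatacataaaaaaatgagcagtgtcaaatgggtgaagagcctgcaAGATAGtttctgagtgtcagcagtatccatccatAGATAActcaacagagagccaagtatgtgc
Il5ra promoter: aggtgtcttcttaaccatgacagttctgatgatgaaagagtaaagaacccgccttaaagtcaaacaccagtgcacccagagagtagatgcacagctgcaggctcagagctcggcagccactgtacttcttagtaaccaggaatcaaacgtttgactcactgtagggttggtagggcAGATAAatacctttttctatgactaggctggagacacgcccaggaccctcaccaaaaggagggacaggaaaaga

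The Ccr3 window held 2 GATA words, starting 64 and 30 bases before the gene's start, and the Il5ra window held 1, starting 74 bases before it. The Siglecf and Epx windows held 0. Over all 32851 promoter windows of this length, 26.5% held at least 1 such word. The word GAGGAA, the core that the factor PU.1 reads, was found on either strand in the Siglecf window (65 bases before the start) and in the Ccr3 window (181 bases before it), against 23.3% of all windows. The C/EBP word TTGCNNAA was in 0 of the 4 members' windows and in 9.56% of all windows. The 3 motifs do not overlap one another in these windows, and a match or its absence describes letters only.

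Levels are log2 processed signals minus the array's 75th percentile, and levels of different genes are not compared, since each probe has its own brightness. A probe was called detected where the scanner program marked it as well above background. The share of probes detected ran from 36.6% to 57.8% over the 24 arrays. Parp1 was detected on 5 of 5 wild-type 0 Gy arrays (mean -0.61), on 3 of 5 at 6 Gy (-1.81) and on 3 of 4 at 8.8 Gy (-2.09), and on 0 of 5 knockout 0 Gy arrays (-3.00). Of the 5 arrays labelled knockout 6 Gy it was detected on 1, the array labelled knockout 6 Gy replicate 1 (-1.67). That array was nearly equal to a second one, labelled wild-type 8.8 Gy replicate 2 (SD of their log2 difference 0.168 over 7620 genes, against a median of 0.921 over 276 pairs), and 1 more, labelled wild-type 8.8 Gy replicate 4, lacked detected Parp1 (-3.95). These 3 arrays are called doubted below, and the members' group differences that rest on them are also given without them. Wild-type 6 Gy replicates 1 and 2 also lacked detected Parp1 (-1.27 and -2.33, above the -3.95), and they were not called doubted. Arrays were scanned on 4 days that followed the groups: wild-type 0 Gy on day 4, both irradiated wild-type groups on day 3, knockout 0 Gy on days 1 and 2, and knockout 6 Gy on days 1, 3 and 4.

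Siglecf, the surface lectin, was detected on 20 of 24 arrays, and the unirradiated arrays, by which it was chosen, separated by genotype label. In wild-type 0 Gy replicates 1 to 5 it was at -0.33, 2.40, 0.44, 0.09 and -0.81, mean 0.36 ± 1.23 (SD, n = 5). In knockout 0 Gy replicates 1 to 5 it was at -1.78, -1.88, -2.11, -3.17 and -2.87, mean -2.36 ± 0.62 (SD, n = 5). All 5 knockout sham arrays lay below all 5 wild-type sham arrays, a difference of -2.72 that chose the gene, and in the knockout only replicate 2 was marked well above background. How many of all genes separated in this way is not given here. Epx did not overlap between the sham groups either (means -3.98 in knockout and -4.94 in wild type), but was well above background on 0 of 5 arrays of each. The knockout sham arrays detected fewer probes, 36.6% to 41.8% against 42.8% to 57.1% in wild-type sham. Their lowest detected level was higher (-2.32 to -1.56 against -4.32 to -2.51), so detection counts of the sham genotypes are not on equal terms. No scan day held arrays of both unirradiated groups, and the part of scan day in the Siglecf difference was not tested.

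After irradiation the wild-type arrays kept to the range of the wild-type sham arrays, apart from 1. At 6 Gy, Siglecf was at 0.89, 1.15, -0.37, 0.95 and 0.99 in replicates 1 to 5, mean 0.72 ± 0.62 (SD, n = 5). At 8.8 Gy it was at 0.53, 0.59, -1.13 and 0.79 in replicates 1 to 4, mean 0.19 ± 0.89 (SD, n = 4), or -0.30 ± 1.17 (SD, n = 2) without the doubted replicates 2 and 4. The exception was wild-type 8.8 Gy replicate 3, lower than every wild-type sham array. The arrays labelled knockout 6 Gy gave 0.59, -2.70, -2.28, -2.13 and -1.09 in replicates 1 to 5, mean -1.52 ± 1.32 (SD, n = 5), or -2.05 ± 0.68 (SD, n = 4) without the doubted replicate 1. Replicate 1 sat among the wild-type arrays, and the other four lay below every wild-type 6 Gy array. Ordered by mean, the groups ran from wild-type 6 Gy through wild-type 0 Gy and wild-type 8.8 Gy to knockout 6 Gy and knockout 0 Gy, and each neighbouring pair in this order overlapped.

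**Figure D1:**
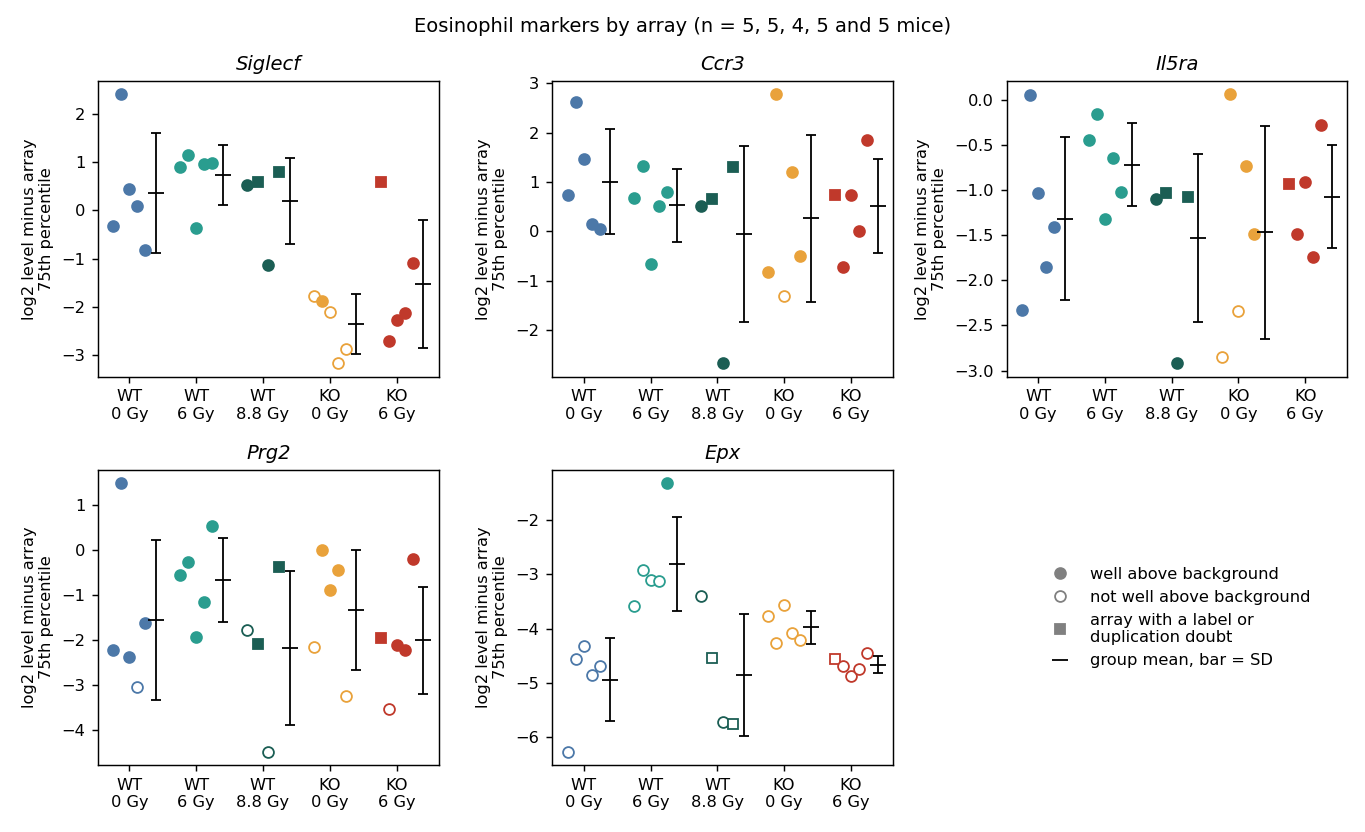
Level of each eosinophil marker on every array (y axis, log2 processed signal minus the array's 75th percentile; each panel has its own scale), by group; 1 point per mouse in replicate order, with the group mean and SD at its right. Siglecf lay between -3.17 and -1.78 in knockout 0 Gy blood and between -0.81 and 2.40 in wild-type 0 Gy blood, whereas the groups overlapped for Ccr3, Il5ra and Prg2, and Epx was well above background on 1 array. Epx, not well above background on any sham array, did not overlap between the sham groups either.

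At 6 Gy in both genotypes, Siglecf was lower in the arrays labelled knockout by -2.24 ± 0.586 (SE, log2; 95% interval -3.46 to -1.03), but it did not pass the threshold of 0.05 across all genes (limma adjusted p = 0.0565, 5 against 5 arrays). In this comparison 111 of 13086 genes tested, 0.848%, passed, and Siglecf stood at rank 201 by p. Without the doubted knockout array it gave -2.77 with limma adjusted p = 0.0204, and without all 3 doubted arrays -2.77 with adjusted p = 0.0217, while the genes passing rose to 545 and 506. Over the arrays of scan day 3 alone the difference was -2.18 (adjusted p = 0.288), and -3.21 (adjusted p = 0.165) with the doubted knockout array left out. These values come from the same series that drew attention to Siglecf and are no independent support for the difference in sham blood.

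At the doses of equal lethality, knockout 6 Gy against wild-type 8.8 Gy, Siglecf differed by -1.72 ± 0.621 (SE, log2; 95% interval -3.00 to -0.43) and did not pass (limma adjusted p = 1, 5 against 4 arrays). Without the 3 doubted arrays it was -1.75 (adjusted p = 1, 4 against 2 arrays). No gene passed in this comparison (0 of 13086, 0%), with 269 at an unadjusted p under 0.05. Between the wild-type doses, 8.8 Gy minus 6 Gy, Siglecf differed by -0.53 ± 0.621 (SE, log2; limma adjusted p = 0.677), or by -1.02 ± 0.677 (adjusted p = 0.638) without the doubted arrays, again with 0 genes passing, 0%, and 2366 at an unadjusted p under 0.05. The radiation responses of Siglecf use a sham group that took part in its choice and are values only: 0.37 for wild-type 6 Gy against sham, -0.16 for wild-type 8.8 Gy against sham and 0.84 for knockout 6 Gy against sham. Without the doubted arrays the last pair became -0.65 and 0.31. Siglecf was not well above background on 4 of the 5 knockout sham arrays, so differences from that group are not exact. In bulk blood, fewer eosinophils and less RNA per eosinophil cannot be told apart.

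Markers of other cells that carry or could carry Siglecf are given beside it. Of 10 alveolar macrophage and lung markers 7 were tested and 0 passed at 6 Gy between the genotypes, beside 0.848% of all genes. Their summed level (log2) ran from 5.28 to 6.13 in wild-type 6 Gy and from 5.64 to 6.86 in knockout 6 Gy arrays. The surfactant gene Sftpc of the lung was detected on 3 of 5 and 2 of 5 of these arrays, and on 0 of 5 in each sham group. Of 6 mast cell markers 3 were tested and 0 passed, beside 0.848% of all genes, with summed levels of 1.45 to 2.96 and 0.74 to 2.25. Kit, the receptor that defines mast cells, was detected on 0 of 5 arrays of both groups. In sham blood, given with no test, some of these markers were lower in the knockout, as Siglecf was. They were Marco (-1.24 in wild-type, -2.23 in knockout), Fabp4 (1.13, 0.36), Mcpt4 (-0.86, -2.09) and Cma1 (-1.84, -3.16). The other tested ones, Chil3, Car4, Krt79, Pparg, Scgb1a1 and Tpsb2, were higher in the knockout. Knockout sham arrays detected fewer probes than wild-type sham arrays. The part of these markers in the Siglecf values was not tested. Of 7 other tested genes of the Siglec family 0 passed between the genotypes at 6 Gy, beside 0.848% of all genes. Siglecg, a Siglec of B cells, came nearest to the threshold (-1.06 ± 0.325, SE, log2; limma adjusted p = 0.0737). Next was Siglec1, the macrophage Siglec (-1.15 ± 0.390, adjusted p = 0.0935). Siglec1 was detected on 4 of 5 wild-type 6 Gy and 2 of 5 knockout 6 Gy arrays. It met the filter on dim probes through wild-type 6 Gy alone, where it was high, so its test is no support for a difference. Cd33, a myeloid Siglec, differed by 0.43 ± 0.348 (adjusted p = 0.488), and the other four had differences between -0.51 and -0.07.

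The dimmer, inner probe of Siglecf was detected on fewer arrays and is given by its values, since most knockout arrays gave it no level above background. It was detected on 4 of 5 wild-type 0 Gy, 3 of 5 wild-type 6 Gy and 2 of 4 wild-type 8.8 Gy arrays, on 0 of 5 knockout 0 Gy arrays and, of those labelled knockout 6 Gy, on the doubted replicate 1 alone. The knockout sham arrays detected fewer probes of all kinds than the wild-type sham arrays, so these counts are not on equal terms. Its group means were -1.94 ± 1.37 (SD), -1.82 ± 0.52 and -2.73 ± 1.64 in wild-type blood at 0, 6 and 8.8 Gy, and in knockout blood -3.88 ± 0.32 unirradiated and -3.82 ± 1.13 after 6 Gy. Over the 24 arrays the levels of both probes had a correlation of 0.72, as a description of arrays that share genotype, dose and scan day. They parted most in wild-type 0 Gy replicate 5, where the inner probe was at 0.09, the highest of its 24 values, and the 3′ end probe at -0.81, the lowest of its group.

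**Figure D2:**
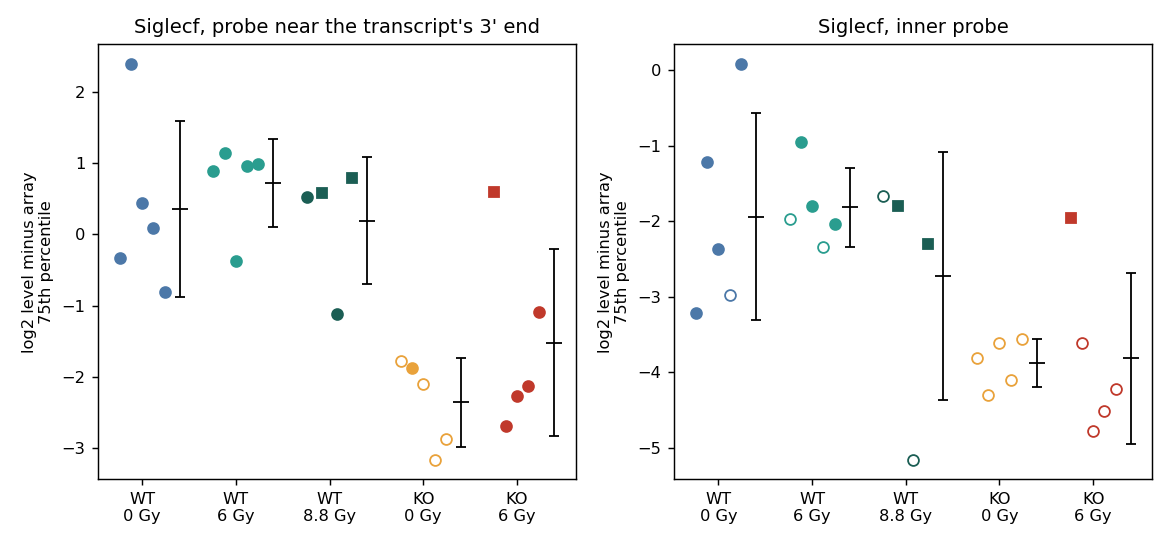
Level on every array (y axis, log2 processed signal minus the array's 75th percentile, with a scale of its own in each panel) for both Siglecf probes by group; filled points are well above background, squares are the 3 doubted arrays, and bars give the group mean and SD. Both probes were low in the knockout groups except on the square labelled knockout 6 Gy, at 0.59 and -1.95. Low values were not limited to knockout arrays, since wild-type 8.8 Gy replicate 3 was at -1.13 and -5.16, the latter the lowest of the inner probe.

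Ccr3, the eotaxin receptor, was detected on 23 of 24 arrays and varied widely within every group. It was at 0.74, 2.63, 1.47, 0.14 and 0.05 in wild-type 0 Gy replicates 1 to 5 (mean 1.01 ± 1.07, SD) and at -0.82, 2.77, -1.32, 1.20 and -0.51 in knockout 0 Gy replicates (0.26 ± 1.69). It was at 0.68, 1.31, -0.67, 0.51 and 0.79 in wild-type 6 Gy (0.52 ± 0.73), at 0.50, 0.66, -2.68 and 1.31 in wild-type 8.8 Gy (-0.05 ± 1.78, or -1.09 without the doubted arrays) and at 0.73, -0.73, 0.73, 0.01 and 1.84 in knockout 6 Gy replicates (0.52 ± 0.96). The groups overlapped, and the highest level of all 24 arrays was in knockout 0 Gy replicate 2, in which Siglecf was at -1.88. Between the genotypes at 6 Gy Ccr3 differed by -0.01 ± 0.756 (SE, log2; limma adjusted p = 0.996) and a 95% interval from -1.57 to 1.56. By mean the order was wild-type 0 Gy, then both 6 Gy groups at 0.52, knockout 0 Gy and wild-type 8.8 Gy, with every neighbouring pair overlapping.

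Il5ra, the interleukin-5 receptor chain, was detected on 22 of 24 arrays and followed Ccr3. It was at -2.33, 0.04, -1.03, -1.86 and -1.41 in wild-type 0 Gy replicates 1 to 5 (mean -1.32 ± 0.90, SD) and at -2.85, 0.06, -2.34, -0.73 and -1.48 in knockout 0 Gy replicates (-1.47 ± 1.18). At 6 Gy it was at -0.45, -0.16, -1.32, -0.65 and -1.02 in wild-type (-0.72 ± 0.46) and at -0.94, -1.49, -0.91, -1.74 and -0.29 in knockout replicates (-1.07 ± 0.57), and at 8.8 Gy at -1.10, -1.03, -2.92 and -1.08 (-1.53 ± 0.92, or -2.01 without the doubted arrays). All groups overlapped, and the order of the means, from wild-type 6 Gy down through knockout 6 Gy, wild-type 0 Gy and knockout 0 Gy to wild-type 8.8 Gy, spanned less than the range within the wild-type sham group. The difference between the genotypes at 6 Gy was -0.35 ± 0.504 (SE, log2; limma adjusted p = 0.733).

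Of the granule proteins, Prg2 was detected on 18 of 24 arrays. It was at -2.21, 1.48, -2.38, -3.03 and -1.62 in wild-type 0 Gy replicates 1 to 5 (mean -1.55 ± 1.77, SD) and at -2.14, 0.01, -0.90, -0.43 and -3.23 in knockout 0 Gy replicates (-1.34 ± 1.33). At 6 Gy it was at -0.56, -0.26, -1.92, -1.14 and 0.54 in wild-type (-0.67 ± 0.93) and at -1.95, -3.53, -2.12, -2.22 and -0.19 in knockout replicates (-2.00 ± 1.19), and at 8.8 Gy at -1.77, -2.09, -4.48 and -0.38 (-2.18 ± 1.70, or -3.12 without the doubted arrays). In knockout 6 Gy blood replicates 1 to 4 lay below every wild-type 6 Gy array and replicate 5 lay among them, a difference of -1.33 ± 0.823 (SE, log2; limma adjusted p = 0.347). The order by mean, wild-type 6 Gy, knockout 0 Gy, wild-type 0 Gy, knockout 6 Gy and wild-type 8.8 Gy, again ran through overlapping neighbours. Epx, the peroxidase, was detected on 1 array, wild-type 6 Gy replicate 5 (-1.32), and did not pass the filter on dim probes, so it was not tested. On all arrays of the other groups, and on the other four of its own, it missed that mark, so no fold is given. Measured values in the other groups ran from -6.27 to -3.41.

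Of the 5 members, 4 passed the filter on dim probes. Of 4 tested members 0 passed between the genotypes at 6 Gy (0.848% of all genes) and 0 at the doses of equal lethality (0% of all genes). Between the wild-type doses 0 of 4 passed (0% of all genes). In the responses against sham, where Siglecf was left untested, 0 of 3 members passed in wild-type blood at 6 Gy, against 3467 of 13086 genes, 26.5%. At 8.8 Gy 0 of 3 passed against 2098 genes, 16.0%, and in knockout blood at 6 Gy 0 of 3 passed against 2977 genes, 22.7%. In these responses Ccr3 differed from sham by -0.48 ± 0.756 (SE, log2), -1.06 ± 0.802 and 0.25 ± 0.756, Il5ra by 0.60 ± 0.504, -0.21 ± 0.534 and 0.40 ± 0.504, and Prg2 by 0.88 ± 0.823, -0.63 ± 0.873 and -0.66 ± 0.823, with limma adjusted p from 0.39 to 0.833. Without the doubted arrays the 8.8 Gy differences from sham became -2.09 ± 0.994 for Ccr3 (limma adjusted p = 0.263), -0.69 ± 0.693 for Il5ra (0.631) and -1.57 ± 1.09 for Prg2 (0.474), with 2 arrays left at that dose. Those of 8.8 Gy from 6 Gy became -1.61, -1.29 and -2.45 (adjusted p 0.56 to 0.612), and those of knockout 6 Gy from wild-type 8.8 Gy became 1.55, 0.90 and 1.11 (each adjusted p = 1). Between the genotypes at 6 Gy they became -0.06, -0.39 and -1.34 (limma adjusted p = 0.978, 0.75 and 0.39). In knockout blood the 6 Gy differences from sham became 0.20, 0.36 and -0.67 (0.879, 0.67 and 0.607), from knockout 6 Gy means of 0.46, -1.11 and -2.01 (n = 4). The intervals are wide, so changes of these sizes were not detectable with 4 or 5 mice a group. Between the sham genotypes, given with no test, Ccr3 differed by -0.74, Il5ra by -0.15 and Prg2 by 0.21.

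**Figure D3:**
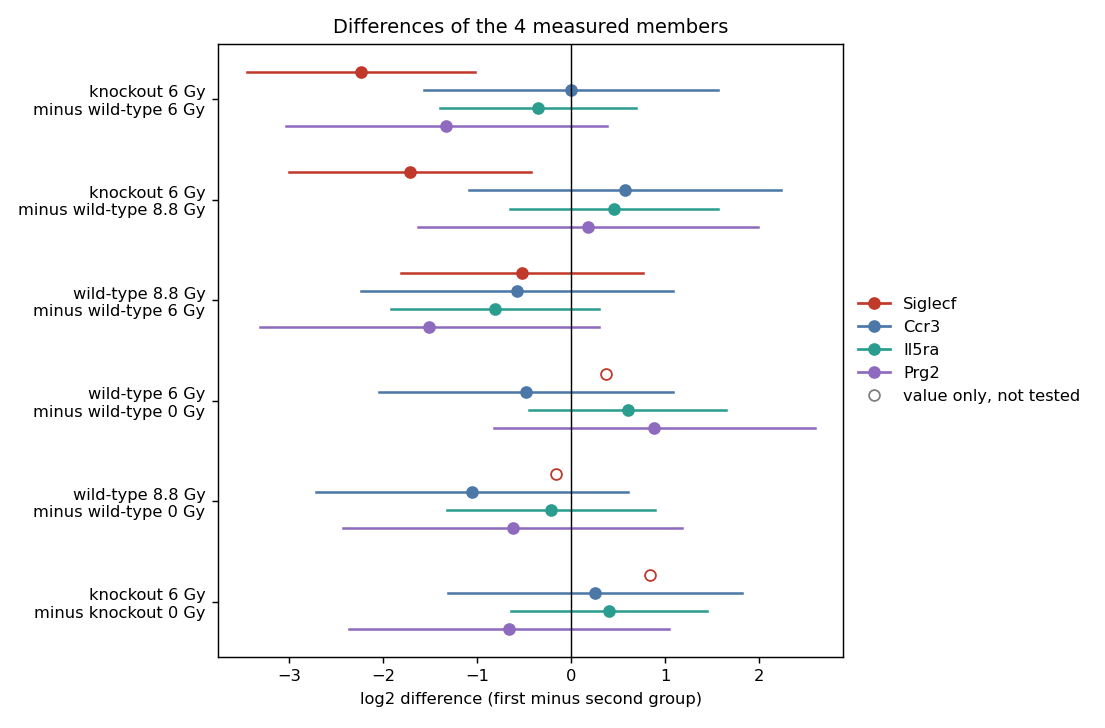
Difference of the group means (x axis, log2, first minus second group) for the 4 measured members in 6 comparisons; lines are 95% intervals from the fit and open points are Siglecf values with no test. The intervals of Ccr3, Il5ra and Prg2 include 0 in each comparison, and those of Siglecf lie below 0 in both comparisons of knockout with irradiated wild-type blood, where its adjusted p was 0.0565 and 1.

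Across the 24 arrays the levels of the receptors and Prg2 were more highly correlated with one another than with Siglecf. Pearson's r was 0.84 for Ccr3 with Il5ra, 0.73 for Ccr3 with Prg2 and 0.70 for Prg2 with Il5ra. It was 0.39 for Siglecf with Ccr3, 0.42 with Prg2 and 0.38 with Il5ra. Taken as deviations from the group means, so that group differences are removed, these were 0.90, 0.80 and 0.71 among the receptors and Prg2 and 0.57, 0.63 and 0.48 for Siglecf. The values are descriptions over arrays that share genotype, dose, slide and scan day. In the ranking of all 13085 other genes by r with Ccr3, Il5ra was at place 10 and Siglecf at place 922, or at 10 and 249 on the deviations. Ranked by r with Siglecf, Prg2, Ccr3 and Il5ra were at places 504, 709 and 781, but at 9, 33 and 228 on the deviations. Within groups Siglecf was thus nearer to Prg2 and Ccr3 than its r over all arrays, which includes the sham values that chose it.

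**Figure D4:**
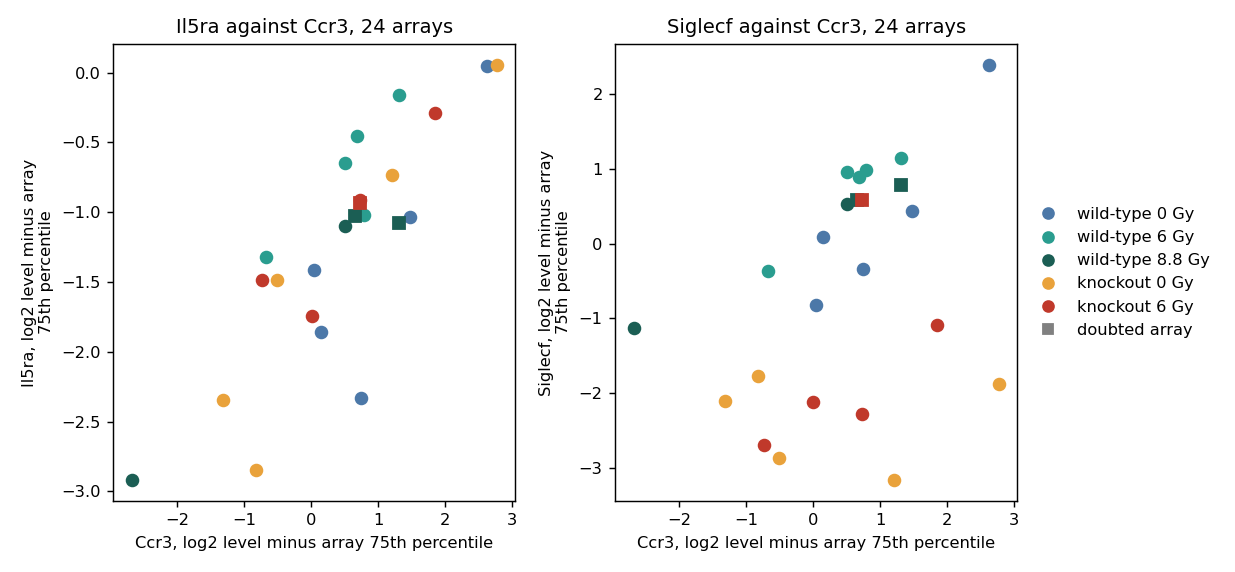
Level of Il5ra (left) and of Siglecf (right) against Ccr3 on 24 arrays (all axes log2 processed signal minus the array's 75th percentile), coloured by group, with the 3 doubted arrays as squares. Il5ra followed Ccr3 in all groups (r = 0.84), while most knockout arrays had low Siglecf at any Ccr3 level, the knockout 0 Gy array with the highest Ccr3 among them (2.77 against -1.88).

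The difference between the log2 levels of Siglecf and Ccr3 within an array, whose zero has no meaning, was lower on average in the knockout groups. It is given as a description, since it uses the values that chose Siglecf, and unlike Siglecf alone it left the sham groups overlapping. It was -0.65 ± 0.47 (SD, n = 5) in wild-type sham arrays, 0.20 ± 0.23 (n = 5) after 6 Gy and 0.25 ± 0.90 (n = 4) after 8.8 Gy. It was -2.62 ± 1.83 (n = 5) in knockout 0 Gy arrays, with values of -0.95, -4.65, -0.79, -4.37 and -2.36 in replicates 1 to 5. In knockout 6 Gy replicates 2 to 5 it was -1.97, -3.00, -2.13 and -2.94, below every wild-type array, and in the doubted replicate 1 it was -0.14. Knockout 0 Gy replicates 1 and 3 lay within the range of the wild-type 0 Gy arrays (-1.08 to -0.06), and on both Siglecf was not well above background.

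The genes whose levels were most like those of Ccr3, Il5ra and Prg2 included Cebpe and Ear6 of the granulocyte program. The 10 most like Siglecf, ranked over levels that include the sham values that chose it, held no gene of the further eosinophil list. With 24 such genes among 13086 tested, their absence from 10 places is no result about Siglecf. For Ccr3 the 3 highest were Inpp5j, an inositol phosphatase (r = 0.92), Cebpe, a transcription factor of late granulocyte maturation (0.92), and Adora3, an adenosine receptor (0.91). For Il5ra they were Cebpe (0.89), Il4, the cytokine interleukin-4 (0.88), and Adora3 (0.88). For Prg2 they were Ear6, an eosinophil-associated ribonuclease (0.85), Ffar2, a receptor for short-chain fatty acids (0.83), and Selenom (0.82). For Siglecf the 10 highest were Odf2, of the centrosome and sperm tail (0.77), the splicing factor gene Prpf19 (0.75), Antxrl (0.73), the class I gene H2-Q4 (0.71), Spryd3 (0.71), Zfp646 (0.70), Tead2, a transcription factor (0.70), the histone demethylase gene Kdm4a (0.69), Gm10406 (0.69) and the olfactory receptor gene Olfr1395 (0.68). This order depended on the doubted arrays: over the other 21, Gm19333 (0.78) and Clec2d (0.77) came first, Odf2 stood at place 6 (0.76), and Prpf19, H2-Q4, Spryd3 and Antxrl also stayed among the 10, while the others named left. On deviations from the group means, Ear6 and Ear7 stood among the 10 genes most like Siglecf (0.66 and 0.63), behind Rnd1 (0.71). All these are correlations over 24 arrays picked as the highest of many, and they are descriptions.

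Of 30 further eosinophil genes, 29 were on the array and 24 were tested. Between the genotypes at 6 Gy 1 passed against 0.848% of all genes, F5, which encodes coagulation factor V and is also made by megakaryocytes, higher in knockout blood by 0.83 ± 0.196 (SE, log2; limma adjusted p = 0.0482). It did not pass in 8 of the 10 fits without 1 array (adjusted p up to 0.115). The list's median difference was 0.05, against -0.05 over all genes tested. In the other comparisons of irradiated groups 0 of 24 passed, with medians of 0.38 for knockout 6 Gy against wild-type 8.8 Gy (all genes 0.01) and -0.45 for wild-type 8.8 Gy against 6 Gy (all genes -0.08).

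No scan day held both sham and irradiated wild-type arrays, and 13 genes of the whole array passed once the scan day entered the fit for 6 Gy and 23 for 8.8 Gy. In wild-type blood at 6 Gy 3 of the 24 were higher than in sham blood and 1 lower, beside 26.5% of all genes, with a median of 0.42 (all genes 0.04). Ltc4s, the leukotriene C4 synthase of eosinophils, mast cells and basophils, rose by 1.50 ± 0.376 (SE, log2; limma adjusted p = 0.00736) and did so in all 10 fits without 1 array. Pirb, an inhibitory receptor of myeloid and B cells, rose by 0.98 ± 0.295 (adjusted p = 0.0187), and Padi4, an enzyme of granulocytes that converts arginine in histones, by 1.42 ± 0.525 (adjusted p = 0.0489, and 0.0609 without the doubted arrays). Markers of other cells passed in the same response: the neutrophil genes Ly6g (1.35, adjusted p = 0.00167), S100a8 (1.21, 0.0232) and S100a9 (1.24, 0.0108), 3 of 12 tested, the mast cell protease gene Tpsb2 (1.88, 0.00308), 1 of 3, and Marco (1.87, 0.0324) and Krt79 (1.28, 0.0236) of the alveolar macrophage and lung list, 2 of 7. Their part in the eosinophil list's values was not tested. The integrin gene Itgb7, used by lymphocytes as well, fell by 0.93 (SE 0.30, adjusted p = 0.0259), but stood at 0.13 once slide entered as a fixed block. With slide or scan day fixed, wild-type sham was linked to the irradiated wild-type arrays only through knockout 6 Gy replicate 4. Such values of the wild-type responses therefore rest on that 1 array.

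At 8.8 Gy 2 of the 24 were higher and 2 lower, beside 16.0% of all genes, with a median of 0.28 (all genes 0.04). Pirb rose by 1.06 ± 0.313 (SE, log2; limma adjusted p = 0.0235) and Gata1, the factor of eosinophil, red-cell and platelet lineages, by 1.70 ± 0.410 (adjusted p = 0.00749). Itgb7 fell by 1.53 (SE 0.318, adjusted p = 0.00294) and S1pr4, a sphingosine phosphate receptor of leukocytes, by 1.91 (SE 0.588, adjusted p = 0.0301). In the same response 3 of 12 neutrophil genes passed as higher, Ly6g, S100a9 and Mmp9 (1.02, 1.05 and 1.38), and 0 of the mast cell and of the lung genes. Without the doubted arrays none of these 7 passed (adjusted p from 0.0604 to 0.28), and the count over all genes fell to 317.

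In knockout blood at 6 Gy 7 of the 24 were higher than in knockout sham blood and 1 lower, beside 22.7% of all genes, with a median of 0.36 (all genes -0.07). Alox15, the lipoxygenase of eosinophils and macrophages, rose by 2.47 ± 0.839 (SE, log2; limma adjusted p = 0.0365), Padi4 by 1.86 ± 0.525 (0.0133), Gata1 by 1.52 ± 0.386 (0.00663) and Pirb by 1.49 ± 0.295 (0.00108). The chemokine gene Ccl6 rose by 1.14 ± 0.363 (0.0262), Csf2ra, the receptor chain for GM-CSF, by 0.98 ± 0.299 (0.0211) and F5 by 0.89 ± 0.196 (0.00233), while Itgb7 fell by 1.10 (SE 0.30, 0.0107). Without the doubted arrays Alox15 did not pass (adjusted p = 0.0507). The macrophage genes Marco (2.33, adjusted p = 0.0101) and Fabp4 (2.18, 0.0109), the mast cell protease gene Mcpt4 (2.24, 0.0183) and the neutrophil protease gene Mmp9 (1.52, 0.00623) also passed as higher, while the neutrophil granule genes Camp (-1.50, 0.0223) and Ltf (-1.74, 0.0313) and the lung list's Car4 (-0.99, 0.00813) and Pparg (-0.91, 0.00255) passed as lower. Their part in the eosinophil list's values was not tested. With slide as a fixed block the genes passing over the whole array fell to 0 in both wild-type responses and to 53 in the knockout response, and 0 of these list genes passed. In the knockout response the values with slide fixed were 1.34 for Pirb, 2.03 for Gata1, 1.16 for Csf2ra, 1.21 for Ccl6, 0.70 for F5 and -1.10 for Itgb7, whereas Padi4 was at 0.997 and Alox15 at 0.33. Only 1 slide held both knockout groups, with 6 Gy replicate 5 beside 0 Gy replicates 1 and 2. These values therefore rest on that 1 irradiated array and are not adjusted group responses.

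**Figure D5:**
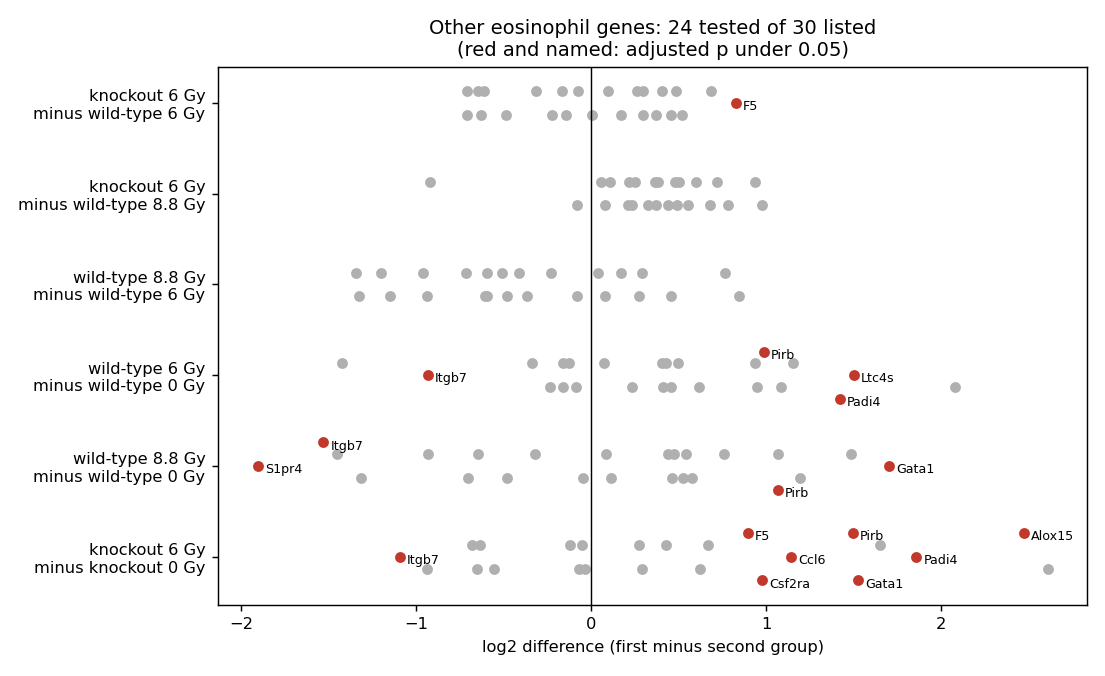
Difference of group means (x axis, log2, first minus second group) of the 24 tested genes of the further eosinophil list in 6 comparisons; each point is 1 gene, red and named where the adjusted p was under 0.05, with height within a band of no meaning. Pirb stood to the right in all 3 responses against sham and Itgb7 to the left, and F5 was the 1 gene that passed between irradiated groups.

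The ribonucleases that fill eosinophil granules did not pass in any of the 6 comparisons. Ear1, Ear2, Ear6, Ear10 and Rnase2a are near-identical genes whose probes may share RNA, so their values are uncertain as single genes. Ear2 had means of 3.54, 3.42 and 2.09 in the wild-type groups by rising dose, and of 3.43 and 2.77 in knockout sham and irradiated blood. Ear6 was at 2.09, 2.70 and 1.76 in the wild-type groups and at 2.16 and 2.09 in the knockout groups. Cebpe was at 1.90, 2.13 and 1.42 and at 1.30 and 1.97. Prg3, the homolog of Prg2, was detected on at most 1 array of a group, and Ptgdr2, the prostaglandin D2 receptor of eosinophils and basophils, on 1 array, so both stayed untested. Basophils also express Il4 and Ltc4s, and of 10 basophil markers 9 were tested. At 6 Gy in wild-type blood 1 passed as higher and 2 as lower (26.5% of all genes), at 8.8 Gy 2 as higher and 3 as lower (16.0%), and in knockout blood 2 as higher and 2 as lower (22.7%). The protease gene Mcpt8 and the IgE receptor chain gene Fcer1a were lower in all 3 (limma adjusted p from 1.09e-05 to 0.000459), but not with slide as a fixed term (0.0682 to 0.495). In wild-type blood at 0, 6 and 8.8 Gy Mcpt8 was detected on 5, 0 and 1 arrays, and in knockout blood on 4 and 0. For Fcer1a these were 5, 1 and 1, and 5 and 0. Both met the filter on dim probes through sham groups alone, where they were high. Their tests are therefore no support for a fall, and the sizes are not exact. Hdc, the histamine-forming enzyme, was higher in all 3 (0.00678 to 0.0361), and without the doubted arrays it passed in neither wild-type response (0.0553 and 0.099). Gata2, a factor of basophils and mast cells, was higher at 8.8 Gy (0.0202, and 0.113 without the doubted arrays) and in knockout blood (0.00388). Cyp11a1, a steroid enzyme, was lower at 8.8 Gy (0.0053), where it was detected on 0 of 4 arrays. It met the filter through wild-type sham blood alone (5 of 5 arrays), so the same limit holds. The part of basophil RNA in the eosinophil values was not tested.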

How the data were processed

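Per the file headers, the authors scanned each 1-colour array and extracted a processed signal intensity per spot, already background-corrected, with Agilent Feature Extraction 11.5.1. The authors also deposited a table of log2 values for 10214 probes, found by comparison to be each array's log2 processed signal plus 1 constant per array, with 8376 cells empty. The sources used here do not give how its constants and probes were chosen.

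Control spots were dropped, spots of a probe averaged, and log2 processed signals centred on each array's 75th percentile. Of 39429 probes, 27508 were named through RefSeq accessions (GRCm38.p6) and 5747 from the array files, and 6174 had no symbol. A gene was tested if its brightest probe passed the scanner program's background mark in some group on 4 or more arrays (13086 of 24325 symbols). Group means of all 24 arrays were fitted in 1 limma model (version 3.58.1, R 4.3.3), two-sided, with Benjamini-Hochberg adjustment over all genes tested and a threshold of 0.05. The script was tested on simulated data. The number of arrays limits the precision.

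The members and lists were chosen with earlier results of these data known. Genes named are the members, list genes that passed or define a list, the 10 genes most like Siglecf and the 3 most like each other tested member, and Parp1. Ear7, and the genes named on deviations from group means, were chosen after their values were seen, as were the Siglec, ribonuclease and Cebpe levels. Each mouse was a separate sample, and replicate numbers were not used for pairing. Alternatives covered background correction, scaling, probe filters, slide and scan day, left-out arrays and the deposited table. Those added after seeing the data were fits within 1 scan day, the day 3 fit without 1 doubted array, and the inner Siglecf probe.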

Additional observations from a re-analysis of the deposited data

Results flagged for a closer look

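In 25 groups of values, 5 members in 5 groups, 4 held an array that stood apart from the others by Dixon's test at the 95% level, where chance marks about 5%. Siglecf was at -0.37 in the array labelled wild-type 6 Gy replicate 3, below the other four, which ran from 0.89 to 1.15. Siglecf was at -1.13 in the array labelled wild-type 8.8 Gy replicate 3, below the other three at 0.53 to 0.79. Il5ra was at -2.92 in the same array, against -1.10 to -1.03 in the others, and Ccr3 was lowest there too (-2.68). Epx was at -6.27 in wild-type 0 Gy replicate 1, not well above background, and the other four of that group ran from -4.86 to -4.33.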

How the results depend on the processing

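Ccr3, Prg2 and Il5ra did not pass in any of 408 repeats of their 18 comparisons (lowest adjusted p 0.0805), and 365 of the 408 kept the sign. Siglecf, knockout minus wild type at 6 Gy, was negative in 25 of 25 repeats and passed in 8: quantile normalisation (-2.15, adjusted p = 0.0455), centring on the array median (-1.61, 0.0361), no filter on dim probes (-2.24, 0.0458), the mean of all probes (-2.12, 0.0423), slide as a random block (-2.22, 0.0351), leaving out the 3 doubted arrays (-2.77, 0.0217), the authors' deposited table (-2.16, 0.0428), and leaving out the knockout replicate 1. Slide as a fixed block (-2.20, limma adjusted p = 0.121) and scan day as a fixed block (-2.18, 0.175) did not pass. Nor did only the groups compared (-2.24, 0.0941) or normexp (-1.21, 0.108). The mean of all probes takes in the inner probe, which also had a repeat of its own. That probe met the filter on dim probes through wild-type sham alone, a group used to choose Siglecf. Both repeats are therefore no support for a difference. Leaving out 1 array at a time, the Siglecf difference ran from -2.77 to -1.95 (adjusted p 0.0204 to 0.118). Against wild-type 8.8 Gy, Siglecf passed with normexp background correction alone (-0.83, adjusted p = 0.0406) and ran from -2.24 to -1.42 without 1 array. The normexp repeat left array medians between 6.20 and 9.74 (log2), with 6 of 24 arrays above 7.5. Siglecf has no value where a probe had to be detected on all arrays.

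Counts of all genes between the genotypes at 6 Gy (111) became 12 with normexp, 367 with quantile, 3813 with median centring, 24 with detection on all arrays, 617 without a filter, 260 with probe means, 27 and 576 with slide as a fixed and a random block, 1 with scan day fixed, 14 with only the groups compared, 506 without the doubted arrays, 370 in the deposited table, 1 within scan day 3, 5 there without the doubted knockout array, and 0 to 545 without 1 array. Knockout 6 Gy against wild-type 8.8 Gy (0) gave 5800 with normexp, 1 without a filter, 1 without the doubted arrays and 0 without any 1 array. Wild-type 8.8 Gy against 6 Gy (0) gave 2173 with normexp, 137 with quantile, 1685 with median centring, 10 and 9 with slide as a fixed and a random block, 132 in the deposited table and 0 to 6 without 1 array. Wild-type 6 Gy against sham (3467) gave 1443 with normexp, 6114 with median centring, 1732 with detection on all arrays, 7058 without a filter, 0 with slide fixed, 13 with scan day fixed and 2295 to 3958 without 1 array. Wild-type 8.8 Gy against sham (2098) gave 4927 with normexp, 0 with slide fixed, 23 with scan day fixed, 317 without the doubted arrays and 1262 to 1984 without 1 array. Knockout 6 Gy against sham (2977) gave 53 with slide fixed, 55 with scan day fixed, 0 within scan day 1 and 2357 to 3310 without 1 array.

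Higher and lower genes split as 47 and 64 between the genotypes at 6 Gy, but 228 and 139 with quantile, 3642 and 171 with median centring and 10 and 2 with normexp. For wild-type 6 Gy against sham 2045 and 1422 became 1661 and 1802, 543 and 5571, and 630 and 813, and for 8.8 Gy 918 and 1180 became 500 and 1996 with median centring. Median centring shifted the median of all genes by 0.64, 0.17, 0.46, -0.78, -0.32 and 0.04 in the 6 comparisons in the order above, and normexp by up to -0.18. Signs turned for Itgb7 at 6 Gy in wild type (0.13, slide fixed), Cyp11a1 and S100a9 at 8.8 Gy (0.41 and -0.17, normexp) and Siglecg in the knockout response (0.29 with slide fixed, scan day fixed or within day 1). With slide or scan day fixed, each response against sham rests on 1 knockout 6 Gy array. The causes were not tested.

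Replicate numbers did not pair arrays (13 of 46 same-number correlations over 0.1). With the replicate number as a block, Siglecf gave -2.24 at 6 Gy (adjusted p = 0.0757) and -1.65 against 8.8 Gy, and the counts were 25, 0, 0, 3108, 1547 and 2643. Arrays numbered 4 or 5 a group, and dim probes such as Epx, limit what could be detected.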
